A study of Arabidopsis thaliana with 24 samples.

Results

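WRKY transcription factors were examined in Arabidopsis thaliana Col-0 (w) and in the dpe2/phs1 double mutant (d). Every gene whose deposited transcription factor family contains WRKY was taken, which gave 71 of the 33044 genes of the table, and no gene had to be added by its name alone. A further 4 genes carry the word only in their description and were left out. The 24 libraries fall into 8 groups of 3 numbered replicates, and since the labels do not tie the replicates to separate plants or cultures, p-values measure the spread between these libraries. Whole shoots were taken at 3 weeks in the Prior Period (wP, dP). Young and mature leaves with their petioles were taken at 5 weeks (wY, dY, wM, dM), in the Reduced Granule Number Period (RGN). Whole shoots were taken again at 7 weeks in the Recovery Period (wR, dR). All plants grew under a light-dark regime and were harvested in the light phase. The mutant was made by crossing and lacks the cytosolic disproportionating enzyme DPE2 and the plastidial phosphorylase PHS1, and Col-0 carries neither mutation. Expression is given as FPKM, a read count divided by the length of the gene and the depth of the library.

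WRKY proteins are plant transcription factors that share the WRKY domain, in which a conserved heptad precedes a zinc finger and contacts DNA. They bind W boxes, short elements with the core TTGAC that are found in many defence genes and in the promoters of WRKY genes themselves. The family is divided by the number of domains and the type of zinc finger into groups I, II and III, with group II split further into IIa to IIe. In leaves, WRKY factors are best known for 2 programmes, the response to pathogens and salicylic acid, and leaf senescence, which they can promote or restrain. Others act in phosphate starvation, heat tolerance and development. The subgroup of each gene below was taken from its deposited description where that states one, and otherwise from general knowledge of the family. The roles were taken from general knowledge and not from the table.

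The heptad shows what the members share at the sequence level. The codons of the heptad were found in the coding sequence of each of the 71 members, with 2 copies in 12 members and 1 copy in 59. The members with 2 copies all belong to subgroup I. The windows below show the members whose expression is described first, with the 21 bases of the heptad in capitals and 9 bases on either side. Each window lies within 1 coding exon. They were read from the RefSeq TAIR10.1 genome, whose gene start and end equal those of the deposited table for all 71 members, and are written 5′ to 3′ on the strand of the gene.
WRKY75 (AT5G13080, chr5:4150777-4150815, reverse strand): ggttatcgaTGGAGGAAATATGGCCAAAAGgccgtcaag
WRKY45 (AT3G01970, chr3:326923-326961, reverse strand): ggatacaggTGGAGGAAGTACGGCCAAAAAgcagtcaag
WRKY6 (AT1G62300, chr1:23017692-23017730, reverse strand): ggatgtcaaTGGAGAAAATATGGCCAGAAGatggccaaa
WRKY44 copy 1 (AT2G37260, chr2:15645927-15645965, forward strand): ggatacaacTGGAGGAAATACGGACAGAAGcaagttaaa
WRKY44 copy 2 (AT2G37260, chr2:15646553-15646591, forward strand): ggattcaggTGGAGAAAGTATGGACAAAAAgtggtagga
WRKY40 (AT1G80840, chr1:30384780-30384818, forward strand): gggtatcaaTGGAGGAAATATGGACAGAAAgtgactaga
WRKY46 (AT2G46400, chr2:19044304-19044342, reverse strand): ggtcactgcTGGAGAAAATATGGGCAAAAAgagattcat
WRKY70 (AT3G56400, chr3:20909751-20909789, reverse strand): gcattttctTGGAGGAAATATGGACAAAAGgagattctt
WRKY51 (AT5G64810, chr5:25908855-25908893, forward strand): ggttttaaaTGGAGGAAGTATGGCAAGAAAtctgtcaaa
WRKY44 has both copies, and the other members shown have a single copy. The last window is from WRKY51, which belongs with WRKY50 and WRKY59 to the 3 members whose sixth codon of the heptad is AAG, while this codon was CAA in 49 copies and CAG in 31.

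The recovered depth of the libraries lay between 17504383 and 27859805 reads, so that 3 reads on a transcript of 1 kb correspond to 0.108 to 0.171 FPKM. The transcripts of the mutated genes were lower in the mutant in P, Y and M, and in R their differences did not pass the threshold. DPE2 fell by 1.14, 1.56 and 1.3 on the log2 scale in dP, dY and dM, and PHS1 by 2.68, 2.69 and 3.45 (adjusted p of 1.9e-05 or less, limma). In R their differences were 0.32 (adjusted p = 0.12) and -0.12 (adjusted p = 0.65), and with the gene length trend removed, -0.38 (adjusted p = 0.0043) and -0.74 (adjusted p = 1.1e-05). The libraries labelled wR also stood apart in gene length. Relative to the mean of all libraries, the longest 10% of protein-coding genes were lower there than the shortest 10% by 0.90, 1.22 and 2.01 on the log2 scale, against values between -0.64 and 0.97 in the other 21 libraries. Directions drawn from these libraries therefore rest on their label, and values with the length trend removed are given beside most of these gene differences. Of 8 floral identity genes, none reached a mean of 1 FPKM in any group, with a summed level of at most 1.68 FPKM per library. Leaf mesophyll markers (RBCS1A, RCA, LHCB1.3, LHCB2.1, PSBO1) were all above 1 FPKM in every group.

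Of the 71 members, 56 had a mean of at least 1 FPKM in at least 1 group and were tested. The other 15 (WRKY9, 10, 24, 34, 35, 41, 43, 56, 59, 64, 66, 67, 68, 72 and 74) stayed below this level. The highest group mean among them was 0.758 FPKM in WRKY35, and WRKY68 was listed at 0 in every library. The number of members with at least 1 FPKM was 39 to 42 in the wM libraries and 51 to 52 in those of dM. It was 37 to 39 in wP and 41 to 45 in dP, and 37 to 40 in wY and 44 to 46 in dY. In the libraries labelled wR it was 41 to 45, and in dR 46 to 48. Over all genes this number was not counted. The summed level of all members was 305 to 319 FPKM in wP and 318 to 327 in dP. It was 412 to 465 in wY and 538 to 598 in dY. In wM it was 717 to 762, in dM 705 to 810, in the libraries labelled wR 575 to 598 and in dR 384 to 436. The summed level thus overlapped between the genotypes in P and M, while it was higher in each dY library than in every wY library and lower in each dR library than in those labelled wR. WRKY70 alone supplied 165 to 187 FPKM of the total in wM.

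Many members had their highest level in mature leaves of the mutant. The highest mean of the 8 groups was in dM for 27 of the 56 members, against 24.1% of all genes tested. In 20 members each dM library lay above all 21 other libraries, against 14% of all genes. These were WRKY2, 4, 6, 8, 15, 25, 26, 28, 31, 36, 45, 55, 57, 60, 61, 63, 65, 69, 71 and 75. The same held for dY in 9 members (7.94% of all genes), for wM in WRKY40, WRKY46, WRKY53 and WRKY70 (3.99%), and for the libraries labelled wR in WRKY38 and WRKY51 (4.9%). WRKY31 and WRKY36 passed the filter only through dM, and WRKY49 only through dY. The filter thus favoured their peaks and calls in these groups. The heat map of group means shows both the dM column and the wM peak of WRKY40, WRKY46, WRKY53 and WRKY70.

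**Figure D1:**
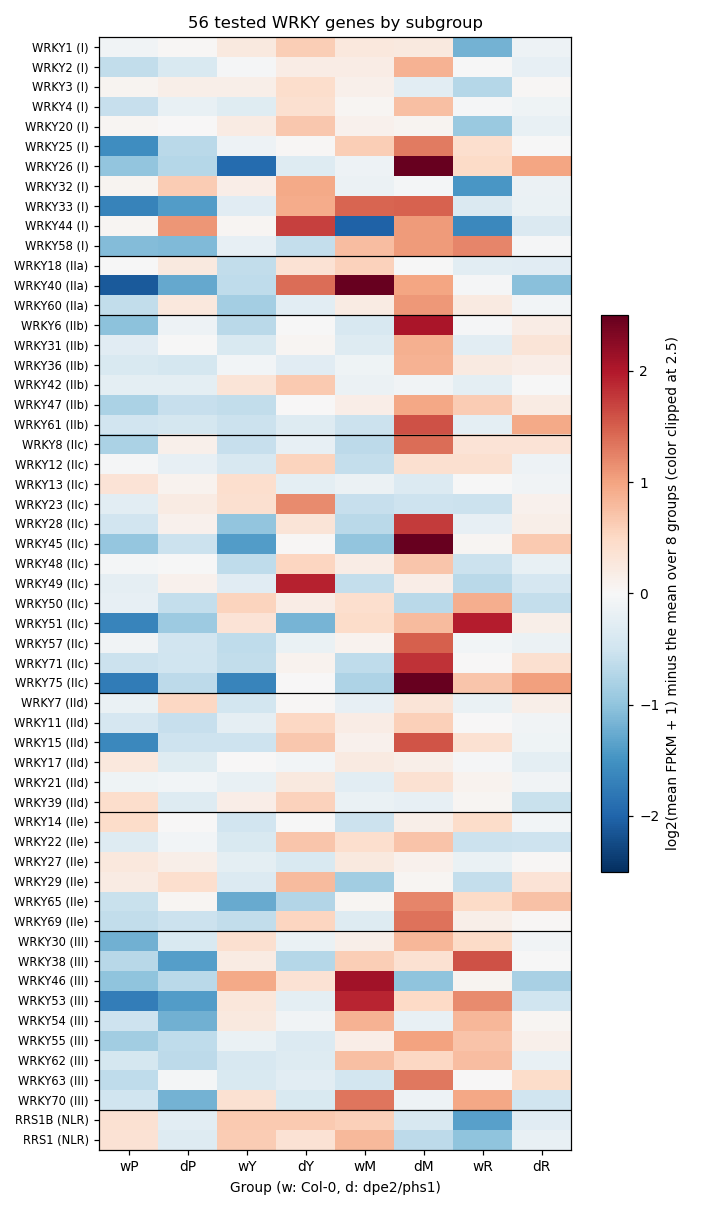
Group means of the 56 tested WRKY genes as log2(FPKM + 1) minus the mean of the gene over the 8 groups, with genes in rows by subgroup and groups in columns (w, Col-0; d, dpe2/phs1; 3 libraries each). Red is above and blue below the mean of the gene, and 27 genes have their highest value in the dM column.

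The number of WRKY genes that differed between mutant and Col-0 rose from P to M, as did that of all genes. In P, 17 of the 56 were higher in the mutant (24.3% of all genes tested were) and 7 lower (14.9% of all genes). In Y, 31 were higher (34.6%) and 8 lower (19.1%), and in M 31 were higher (36.6%) and 10 lower (32.5%). In R, 17 were higher (31.6%) and 17 lower (25.2%). A gene was called at an adjusted p under 0.05 in limma over all 19575 genes tested. The median log2 fold change of the 56 members was 0.22 in P, 0.44 in Y, 0.59 in M and -0.03 in R, beside 0.06, 0.15, 0.05 and 0.05 for all genes. The share of WRKY genes that were higher was thus 55.4% in Y and in M, above the share of all genes, and 30.4% in P and in R, near that share. The share that were lower in M was 17.9%, below that of all genes. In bulk tissue, fewer cells of a type and less RNA per cell cannot be told apart.

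**Figure D2:**
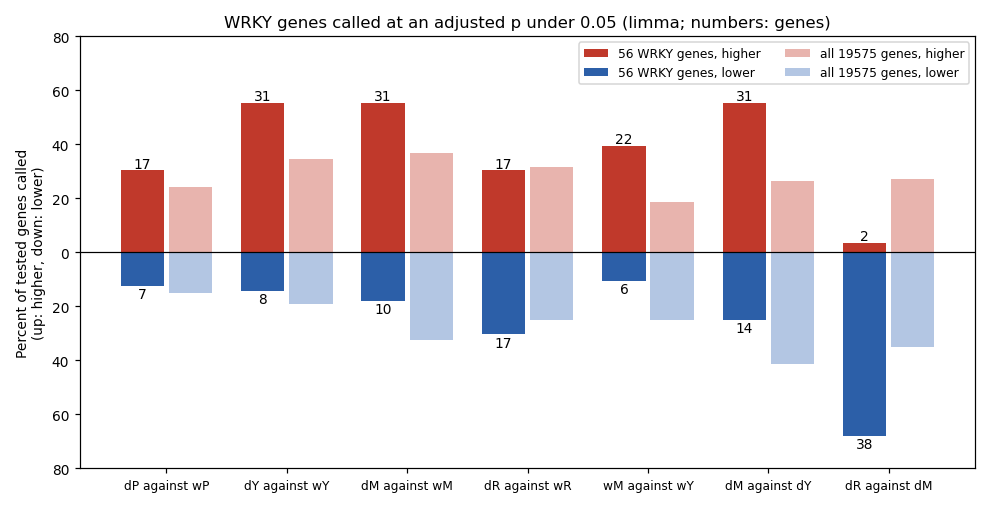
Percent of the 56 tested WRKY genes (dark bars) and of all 19575 tested genes (light bars) called higher (up, red) or lower (down, blue) in the first group named on the x axis, with the number of WRKY genes on each bar. In dM against wM 31 WRKY genes were higher and 10 lower, and in dR against dM 2 were higher and 38 lower.

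Rescaling of the libraries by median-of-ratios moved the median of all genes in Y from 0.15 to 0.01 and the share of calls that were higher from 64.5% to 49.8%. For the WRKY genes it gave 27 higher and 10 lower in Y. In P the share of all calls that were higher moved from 62.0% to 49.8%, with 16 WRKY genes higher and 8 lower.

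The largest increases in M were in WRKY45 and WRKY75, which promote senescence and act in phosphate starvation. WRKY75, which is itself induced by phosphate starvation, had 26.3, 29.1 and 31.6 FPKM in dM and 0.753, 1.36 and 0.936 in wM. WRKY45, an activator of a phosphate transporter gene, had 28.9, 33.2 and 30.1 FPKM in dM and 0.766, 0.923 and 0.558 in wM. Both transcripts were thus near 1 FPKM in mature leaves of Col-0 and far above every other library in those of the mutant. The means differed 28.5-fold for WRKY75 (log2 fold change of FPKM + 1, 3.90, standard error 0.14, adjusted p = 3.9e-16) and 41-fold for WRKY45 (4.18, standard error 0.17, adjusted p = 3.1e-15). In Y the levels were lower in both genotypes, with 1.84, 2.75 and 2.91 FPKM of WRKY75 in dY and at most 0.161 in wY, and 2.87, 2.36 and 2.35 FPKM of WRKY45 in dY and at most 0.461 in wY. The Y groups did not overlap for either gene (log2 fold changes 1.66 and 1.43, adjusted p of 4.2e-07 or less). In P, WRKY75 had 0.954 to 1.33 FPKM in dP and a total of 1 read in the wP libraries. The rise of WRKY45 in P (0.44, adjusted p = 0.049) lay at the threshold and was lost under 10 alternatives, among them the absence of wP replicate 1 or 3 or of dP replicate 2 or 3, where it was 0.29 to 0.51.

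WRKY6, a senescence and defence factor that represses the phosphate exporter PHO1, followed with 30.5, 27.9 and 25.2 FPKM in dM and 4.58, 3.65 and 4.65 in wM. The log2 scale difference was 2.45 with a standard error of 0.13 (adjusted p = 1.8e-13), and WRKY6 was also higher in dP (0.90) and dY (0.67). WRKY42 (AT4G04450), which shares the PHO1 role, did not follow this pattern. It was higher in dY (0.34, adjusted p = 0.027), which was not called with the length trend removed (0.20, adjusted p = 0.18), and in M its means were 0.603 FPKM in dM and 0.552 in wM (adjusted p = 0.74). WRKY22 (AT4G01250), a factor of flagellin signalling and of dark-induced senescence, had 4.73 to 5.95 FPKM in dY and 1.60 to 2.23 in wY (log2 fold change 1.07), and in M its difference was 0.28 (adjusted p = 0.069). WRKY71, known for branching and flowering and also linked to senescence, had 4.02 to 6.27 FPKM in dM and at most 0.119 FPKM (2 to 3 reads) in wM. WRKY55, another senescence factor, and WRKY57, a restraint on jasmonate-induced senescence, were higher in dM by 0.87 and 1.39 on the log2 scale.

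**Figure D3:**
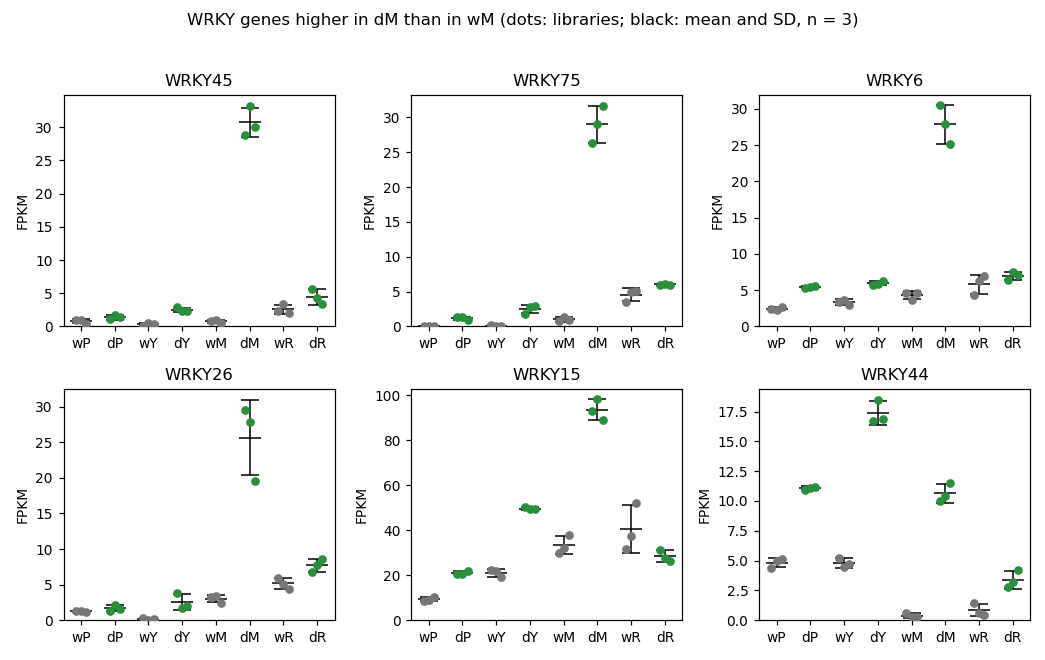
FPKM of 6 WRKY genes in each library (dots; grey, Col-0; green, dpe2/phs1) with mean and SD of 3 libraries (black), by group. The dM libraries of WRKY45, WRKY75, WRKY6, WRKY26 and WRKY15 lie above all others, while WRKY44 is highest in dY (16.7 to 18.5 FPKM).

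WRKY70, WRKY54 and WRKY53 moved the other way. WRKY70, a node of salicylic acid signalling that restrains senescence, had 165, 169 and 187 FPKM in wM and 63.1, 59.6 and 64.5 in dM. Its close relative and partner WRKY54 (AT2G40750) had 79.4, 81.5 and 87.0 FPKM in wM and 38.6, 43.2 and 35.7 in dM. Both fell in all 4 comparisons with Col-0, and they were the only members of which this held (1.91% of all genes). On the log2 scale WRKY70 fell by 0.68 in P, 0.76 in Y, 1.46 in M and 1.46 in R, and WRKY54 by 0.66, 0.33, 1.06 and 0.78 (adjusted p of 0.0079 or less in each). In none of these comparisons did the libraries of the genotypes overlap, and both genes remained lower in R with the length trend removed (-1.32 and -0.63).

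WRKY53 (AT4G23810), a positive regulator of the onset of senescence, had 29.8, 32.0 and 31.1 FPKM in wM and 12.1, 9.85 and 11.1 in dM. It fell by 1.41 in M, 0.52 in Y and 1.68 in R on the log2 scale, with adjusted p of 0.0048 or less. In the annotation, 341 bases of WRKY53 overlap a gene on the opposite strand (AT4G23800, up to 66.5 FPKM), and without knowledge of the strand in counting, reads of the overlap cannot be told apart. Of the 11 factors listed for senescence, 6 were higher in dM (36.6% of all genes) and 3 lower (32.5%), namely WRKY53, WRKY54 and WRKY70. The senescent leaf markers SAG12, SAG13, SAG21 and SAG101 summed to 887 to 1100 FPKM in dM and to 87.8 to 95.4 in wM. SAG12 was listed at 0 in each wM library and had 40.4 to 45.8 FPKM in dM, whereas SAG101 fell by 1.03 on the log2 scale. The mesophyll markers summed to 19400 to 21500 FPKM in dM and to 33000 to 34300 in wM. The part of these marker levels in the WRKY differences was not tested.

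WRKY46 showed the largest decrease of the family in the comparisons with Col-0. It acts with WRKY54 and WRKY70 in growth and basal resistance and had 30.8, 30.5 and 27 FPKM in wM and 3.65, 2.24 and 1.76 in dM. The means differed 11.6-fold (log2 fold change -3.14, standard error 0.17, adjusted p = 2.5e-13). In Y the fall was 0.60 and in R 0.89 (0.70 with the length trend removed). In Col-0 its level was higher in wM than in wY (1.16), and in the mutant it was lower in dM than in dY (-1.38). Subgroup III, to which WRKY46, WRKY53, WRKY54 and WRKY70 belong, was lower in Y for 6 of its 9 tested members (19.1% of all genes), and the other 3, WRKY55, WRKY62 and WRKY63, had -0.21, 0.08 and 0.13. In M, 4 members were lower (32.5%) and WRKY30, WRKY55 and WRKY63 higher. In R, 8 of 9 were lower (25.2%), and WRKY63, an abscisic acid factor, was higher by 0.44 (0.74 with the length trend removed). WRKY30 and WRKY55 were not called in R with the trend removed (both -0.35, adjusted p = 0.19), which left 6 lower. WRKY63 lies in a cluster of close copies on chromosome 1 with WRKY64 and WRKY67, so the counting of their reads is uncertain.

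**Figure D4:**
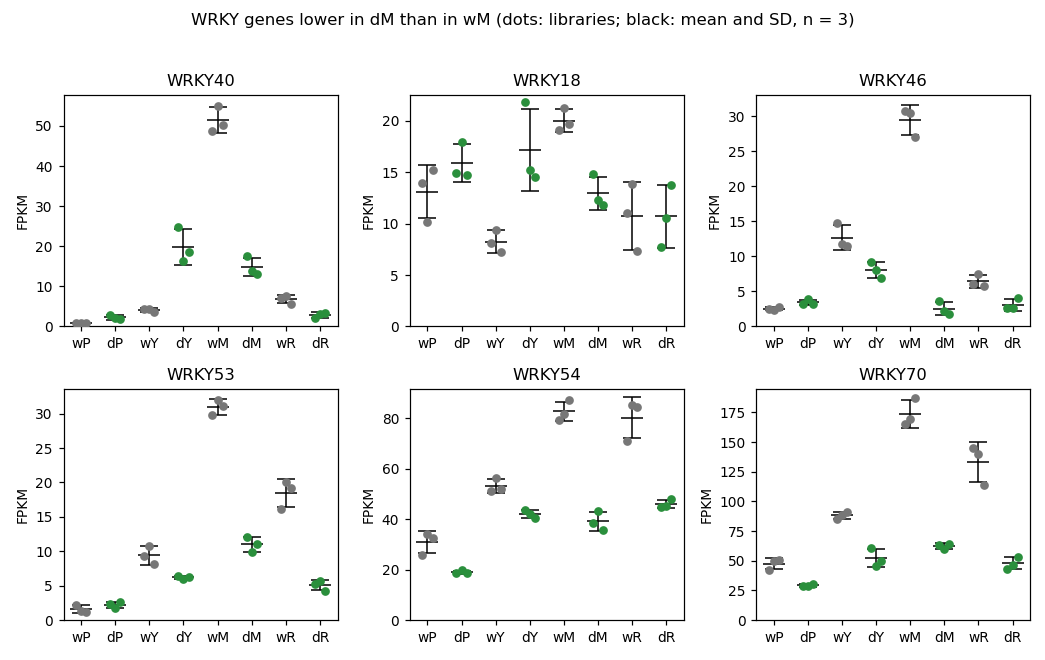
FPKM of 6 WRKY genes of subgroups IIa and III in each library (dots; grey, Col-0; green, dpe2/phs1) with mean and SD of 3 libraries (black), by group. All 6 are lower in dM than in wM, whereas WRKY40 and WRKY18 are higher in dY than in wY.

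The subgroup IIa factors WRKY18, WRKY40 and WRKY60 bind each other, restrain basal defence and act in abscisic acid signalling. They were all higher in Y and parted in M. WRKY40 had 4.42, 4.43 and 3.62 FPKM in wY and 24.9, 16.2 and 18.5 in dY. In mature leaves it had 48.8, 55.0 and 50.3 FPKM in wM and 17.5, 13.8 and 13.2 in dM. Col-0 thus showed a steep increase from young to mature leaves (log2 fold change 3.35, adjusted p = 1.3e-13), and in the mutant the levels of both leaf ages lay between those of Col-0. The mutant effect was 2.00 in Y and -1.73 in M, and its difference between M and Y was -3.73 (standard error 0.23, adjusted p = 3.3e-11). A stretch of 51 bases of WRKY40 overlaps AT1G80850 on the opposite strand, which reached 20.8 FPKM.

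WRKY18 (AT4G31800) followed the same order with smaller changes (0.96 in Y, -0.60 in M, difference -1.56, adjusted p = 0.00012). WRKY60 (AT2G25000) was higher in both, by 0.57 in Y and 0.87 in M. WRKY18 and WRKY40 were the 2 members called higher in Y and lower in M with a called difference, against 3.84% of all genes. WRKY30 was the only member with the reverse order, lower in Y (-0.60) and higher in M (0.69), against 1.63% of all genes. Its rise in M was not called with the length trend removed (0.43, adjusted p = 0.085).

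The list of factors of defence and salicylic acid, which includes WRKY18, WRKY40, WRKY46, WRKY54, WRKY60 and WRKY70, showed no common direction. Of the 16 listed, 8 were higher and 5 lower in Y (34.6% and 19.1% of all genes), and 5 were higher and 6 lower in M (36.6% and 32.5%). WRKY33 (AT2G38470), which drives camalexin synthesis downstream of MPK3 and MPK6, had 33.3 to 40.3 FPKM in dY and 11.3 to 18 in wY (log2 fold change 1.22, adjusted p = 2e-06). In M it had 41.0 to 60.7 FPKM in dM and 49.1 to 57.2 in wM, and the groups overlapped. Genes on the opposite strand that overlap WRKY33 reached at most 7.05 FPKM. WRKY28 (AT4G18170), an activator of salicylic acid synthesis, had 4.88 to 7.00 FPKM in dM and 0.247 to 0.460 in wM, an 18.2-fold difference of means. Its relative WRKY8 (AT5G46350), a factor of defence and salt tolerance, was higher in dM by 2.07 and in dP by 0.90, and the rise in Y (0.38, adjusted p = 0.035) was lost under 8 alternatives, among them the removal of the length trend (0.17, adjusted p = 0.33) and the absence of wY replicate 2 or 3 or of a dY replicate (0.31 to 0.39).

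WRKY51 and WRKY50, which carry the AAG codon shown above and mediate the repression of jasmonate signalling by salicylic acid, differed between groups. WRKY51 had 8.30, 10.3 and 6.39 FPKM in wY and 2.54, 2.26 and 2.02 in dY, and fell by 1.49 (adjusted p = 2.8e-08). In M it had 10.7 to 12.4 FPKM in dM and 8.83 to 9.36 in wM (0.32, adjusted p = 0.068), and in P it was higher in dP (0.76). WRKY50 was lower in dM (-1.09) and not called in Y, where its dY libraries spread from 2.63 to 8.94 FPKM. WRKY38 (AT5G22570), a negative regulator of basal defence, was lower in dP (-0.67, and -0.50 with adjusted p = 0.055 without wP replicate 3) and dY (-0.95).

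Among factors of heat tolerance, WRKY25 and WRKY26 were higher in dM. WRKY26 (AT5G07100) had 29.6, 27.8 and 19.6 FPKM in dM and 3.24, 3.40 and 2.43 in wM, a difference of 8.49-fold (log2 fold change 2.72, adjusted p = 1.6e-11). In Y it had 1.77 to 3.80 FPKM in dY and 0.0797 to 0.243 (2 to 8 reads) in wY. The dM libraries lay above all others, and in Col-0 WRKY26 was higher in wM than in wY (1.79). In R it was higher by 0.51, which was not called without replicate 3 of the libraries labelled wR (0.41) or without dR replicate 2 or 3 (0.50 and 0.43). With the length trend removed this rise was 0.58 (adjusted p = 0.0061, limma). WRKY25 was higher by 0.66 in M. WRKY39 (AT3G04670) was lower in dP (-0.76) and higher in dY (0.40, and 0.24 with adjusted p = 0.06 after median-of-ratios rescaling).

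WRKY15 (AT2G23320), a regulator of growth and of responses to osmotic stress, had the highest mean of the family in dM. It had 93.0, 98.5 and 89.2 FPKM in dM and 30, 32.1 and 37.8 in wM, and 50.2, 49.5 and 49.3 in dY and 22.3, 21.7 and 19.2 in wY. Its log2 fold change was close in P, Y and M (1.09, 1.20 and 1.47), and the difference between M and Y did not pass the threshold (0.27, standard error 0.18, adjusted p = 0.23). WRKY44 (TTG2), which controls trichomes and seed coat pigment, had a separate pattern. It had 4.47 to 5.23 FPKM in wY and 16.7 to 18.5 in dY. In wM it had 0.634, 0.274 and 0.233 FPKM and in dM 10, 10.4 and 11.5, a 28-fold difference of means (log2 fold change 3.09, adjusted p = 8.7e-14). Its low level in mature leaves of Col-0 was thus absent from the mutant, where dM was lower than dY by 0.66 on the log2 scale. WRKY44 was higher in the mutant in all 4 comparisons (3.66% of all genes), as were WRKY7, WRKY45 and WRKY75. The rise of WRKY45 in P lay at the threshold and was not called with the length trend removed (0.29, adjusted p = 0.18, limma). WRKY7 was not called in R with the length trend removed (0.11, adjusted p = 0.51, against 0.30). WRKY75 had a rise of 0.36 in R (adjusted p = 0.037) that was not called without replicate 1 of the libraries labelled wR (0.22) or when a dR replicate was left out (0.35 to 0.37). With the length trend removed this rise was 0.68 (adjusted p = 0.0012, limma). In R, WRKY15 was lower (-0.46, and -0.24 with adjusted p = 0.08 when the length trend was removed).

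In the shoots of the Prior Period the differences were smaller. The largest rises were in WRKY75 (1.10), WRKY15, WRKY44 and WRKY8, and the largest falls in WRKY39 and WRKY70. WRKY15 had 20.7, 20.7 and 21.8 FPKM in dP and 8.70, 9.11 and 10.2 in wP, and WRKY44 had 10.9, 11.1 and 11.2 in dP and 4.37, 4.98 and 5.11 in wP (log2 fold change 1.06, adjusted p = 1.4e-05). WRKY39 had 6.23, 6.03 and 5.99 FPKM in dP and 11.6, 9.29 and 12.2 in wP. In these genes the dP and wP libraries did not overlap. Of the 4 listed phosphate factors, 3 were higher in dP (24.3% of all genes) and WRKY42 had a difference of -0.01. In subgroup IIc 6 of 13 tested members were higher in dP (24.3% of all genes), and in subgroup III 2 of 9 were higher and 3 lower (14.9%). The phosphate and subgroup IIc counts include WRKY45, whose rise was not called with the length trend removed (0.29, adjusted p = 0.18, limma).

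Other developmental factors were also called. WRKY12, a regulator of stem secondary walls and flowering, was higher in dY (0.97) and dM (1.00), and its counterpart WRKY13 was lower in dY (-0.66). WRKY23, a factor of auxin-dependent root development, was higher in dP, dY and dR by 0.47, 0.77 and 0.63. With the length trend removed its rise in dR was 0.55. In M the means of WRKY23 were 2.43 FPKM in dM and 2.29 in wM. Outside the lists, WRKY49 (AT5G43290) had 4.12 to 6.03 FPKM in dY, where each library lay above all 21 others, and at most 1.04 FPKM elsewhere. Its rise in Y was 2.22 on the log2 scale (adjusted p = 2.2e-11). WRKY49 passed the filter only through dY, so the filter favoured this peak and call.

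In subgroup IId, whose members bind calmodulin, 5 of 6 tested members were higher in dY (34.6% of all genes) and 4 in dM (36.6%). WRKY11 (AT4G31550), a negative regulator of basal resistance, had 40.8, 38.2 and 36.2 FPKM in dY and 24.6, 23.6 and 19.7 in wY (log2 fold change 0.74), and its dM and wM libraries overlapped. WRKY17 (AT2G24570), which acts with WRKY11, did not share this pattern. It had 7.88 to 9.28 FPKM in dY and 8.06 to 9.86 in wY, and it was lower in dP (-0.57).

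In subgroup IIe, 4 of 6 tested members were higher in dY (34.6% of all genes) and 4 in dM (36.6%). WRKY29 (AT4G23550), which acts with WRKY22 in flagellin signalling, had 2.46 to 3.18 FPKM in dY and 0.491 to 1.01 in wY, and 1.27 to 1.37 in dM and 0.188 to 0.320 in wM. It was higher in both leaf ages and in R, by 1.15, 0.92 and 0.96 on the log2 scale (1.13 in R with the length trend removed). Its neighbour in the subgroup, WRKY27 (AT5G52830), a factor in bacterial wilt, was the only tested member called in none of the comparisons with Col-0, with differences of -0.11, -0.15, -0.16 and 0.18. WRKY65 and WRKY69 were higher in dM by 1.16 and 1.68, and 373 bases of WRKY69 overlap AT3G58720 on the opposite strand (up to 22.8 FPKM).

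In subgroup I, 5 of 11 tested members were higher in dY (34.6% of all genes), and in dM 5 were higher (36.6%) and 1 lower (32.5%). The lower member was WRKY3 (AT2G03340), a factor of resistance to necrotrophic fungi, with 15.1, 14.3 and 12 FPKM in dM and 17.7, 20.2 and 17.2 in wM (log2 fold change -0.39). Its close relative WRKY4 was higher in dM (0.70) and in dY (0.71). In subgroup IIb, WRKY47 (AT4G01720) had 8.86 to 11.8 FPKM in dM and 4.62 to 6.22 in wM, and WRKY31 (AT4G22070) had 1.00 to 1.84 in dM and at most 0.0893 in wM. WRKY31 passed the filter only through dM, which favoured its call there.

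RRS1 and RRS1B join the WRKY domain to an immune receptor of the NLR type. They were lower in dM, where RRS1 (AT5G45260) had 1.90 to 2.60 FPKM against 6.90 to 8.99 in wM (log2 fold change -1.46, adjusted p = 3.5e-06) and RRS1B (AT5G45050) 3.18 to 5.15 against 8.40 to 10.5 (-0.99, adjusted p = 0.00025). Both were also lower in dP, by 0.65 and 0.62. They are the longest members shown here, with listed lengths of 5720 and 4538 bases. The gene length trend was removed by these lengths, while their FPKM, recovered reads and depth correspond to shorter ones. The dM libraries had a length trend of -0.22 to -0.64, against 0.37 to 0.69 in wM. With the trend removed the fall in dM was 0.35 for RRS1 (adjusted p = 0.0017) and 0.14 for RRS1B (adjusted p = 0.2), and in R RRS1 turned from 0.81 to -0.30.

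The mutant effect differed between young and mature leaves for 37 of the 56 members (48.8% of all genes). The effect in M minus that in Y was positive for 22 (20.8% of all genes) and negative for 15 (27.9%), by the interaction term in limma on the log2(FPKM + 1) scale. With a pseudocount of 0.1, and in limma-voom on the recovered reads, 15 were positive and 14 negative. Of all 19575 genes, 3616 were positive and 5429 negative with the pseudocount, and 3510 and 5631 in limma-voom. The largest positive differences were in WRKY45 (2.76) and WRKY75 (2.24), and the largest negative ones in WRKY40 (-3.73) and WRKY46 (-2.54). The size of the difference depended on the scale where a Col-0 level was low. WRKY75 had a difference of 0.99 with a pseudocount of 0.1 (adjusted p = 0.033) and 0.49 in limma-voom (adjusted p = 0.51), while WRKY45 had 2.42 and 2.15 and remained called. Subgroup IIb was higher in dM for 5 of 6 tested members and subgroup IIc for 9 of 13 (36.6% of all genes). In subgroup IIb, WRKY31 and WRKY36 passed the filter only through dM, so the filter favoured their calls there. WRKY61 (AT1G18860) of subgroup IIb went from 0 to 0.0237 FPKM in wM (at most 1 read) to 2.47 to 4.17 in dM (90 to 153 reads). In dY it had 0.136 to 0.204 FPKM. A non-coding gene that overlaps WRKY61 on the opposite strand reached at most 0.241 FPKM.

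**Figure D5:**
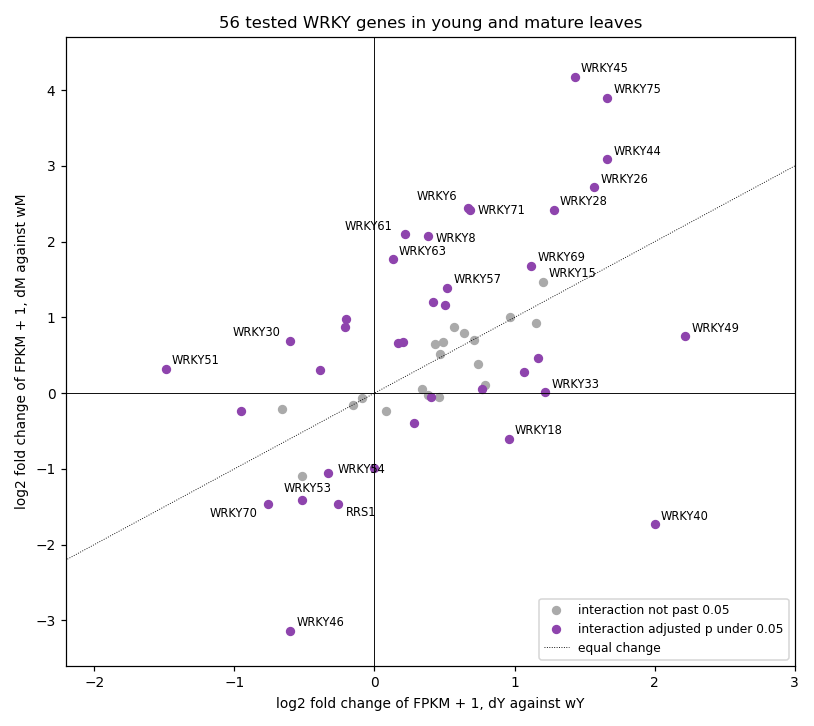
Log2 fold change of FPKM + 1 of the 56 tested WRKY genes, dpe2/phs1 against Col-0, in young leaves (x axis) and mature leaves (y axis), 3 libraries a group. Purple points have a called difference between both effects, with WRKY40 (2.00 and -1.73) at the lower right and WRKY45 (1.43 and 4.18) at the top.

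Between leaf ages of the same genotype, more WRKY genes were higher in mature leaves. In Col-0, 22 members were higher in wM than in wY (18.8% of all genes) and 6 lower (25.2%). In the mutant, 31 were higher in dM than in dY (26.5%) and 14 lower (41.2%). Among the 16 defence factors, 10 were higher in wM (18.8% of all genes), with WRKY40 (3.35) and WRKY33 (1.74) as the largest increases. In the mutant WRKY45 (3.17), WRKY75 (3.11), WRKY26 (2.94) and WRKY6 (2.05) increased from dY to dM. Removal of the gene length trend reversed WRKY20 (from -0.60 to 0.35) and RRS1 (from -1.03 to 0.25) in the mutant comparison. Their listed lengths, by which the trend was removed, are 4229 and 5720 bases. For both genes the FPKM, recovered reads and depth correspond to a shorter length than the listed one, most of all for WRKY20. These reversals are therefore uncertain. Median-of-ratios rescaling moved the median of all genes from -0.16 to 0.05 in the mutant and the share of all calls that were higher from 39.1% to 53.4%, with 34 WRKY genes higher and 11 lower. In Col-0 the share moved from 42.8% to 53.9%, with 28 higher and 5 lower, and for the interaction from 42.7% to 52.3%, with 23 and 14.

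From dM to dR the levels were lower again in most members. Of the 56, 38 were lower in dR than in dM (34.9% of all genes), and WRKY23 and WRKY54 were higher (27% of all genes). WRKY45 had 5.69, 4.24 and 3.41 FPKM in dR, WRKY75 had 6.01, 6.15 and 5.98, and WRKY6 had 6.36, 7.5 and 7.11. These levels were below each dM library, with falls of 2.56, 2.08 and 1.85 on the log2 scale. Leaf age and tissue differ between the groups, since dM was mature leaves and dR whole shoots, and they cannot be told apart from the period.

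Against the libraries labelled wR, dR differed in both directions. WRKY51 had 23.1, 24.2 and 35.3 FPKM in the libraries labelled wR and 7.20, 7.57 and 6.65 in dR, and WRKY53 had 16.1, 20 and 19.2 against 5.25, 5.66 and 4.30. They fell by 1.79 and 1.68, and by 1.47 and 1.57 with the length trend removed. The largest rises were in WRKY32 (1.40), WRKY44 (1.27), WRKY1 (1.19) and WRKY61 (1.17), of which WRKY32 (AT4G30935) had 4.15, 2.54 and 0.752 FPKM and WRKY1 10.6, 6.24 and 2.84 in the libraries labelled wR. In both genes the third of these libraries, which had the strongest length trend, was the lowest. With the trend removed the rises were 1.39, 1.17, 1.02 and 1.10. Removal of the trend left 12 of the 17 higher and 13 of the 17 lower calls in place. WRKY1 (AT2G04880) shares 166 bases with AT2G04890 on the opposite strand, at up to 11.7 FPKM.

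The WRKY proteins act in pathways with kinases, VQ proteins and salicylic acid, and those genes are given for comparison. Of 8 kinases of the MPK3, MPK4 and MPK6 cascades, 2 were higher and 3 lower in dM, near the shares of all genes (36.6% and 32.5%), and 7 were lower in dR (25.2%). MPK3 had 117 to 129 FPKM in wM and 35.0 to 56.4 in dM. Of 3 tested VQ proteins, SIB1 and JAV1 (VQ22), partners of WRKY33 and WRKY51, were higher in dM by 0.59 and 1.31 (36.6% of all genes). The third, MKS1, was not called there (0.25, adjusted p = 0.21, limma). All 3 were lower in dR (25.2% of all genes), also with the length trend removed. The list of salicylic acid genes also holds other reported WRKY targets, among them PAD3 and CYP71A13. Of its 13 tested genes, 3 were higher in dM and 3 lower, shares below those of all genes (36.6% and 32.5%). The higher genes were PR1, PAD3 and CYP71A13, and the lower ones NPR3, NPR4 and PR5. PR1, a marker of salicylic acid responses, had 2770 to 3270 FPKM in dM and 200 to 239 in wM. PAD3 and CYP71A13, camalexin genes targeted by WRKY33, were higher by 3.66 and 4.52, while WRKY33 itself had overlapping libraries.

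W boxes in the 250 bases before the annotated start were searched as TTGACC and TTGACT on both strands, and each start position was counted, including matches that shared a base. They were found in 19 of the 56 tested members (33.9%) and in 27.8% of all tested genes. Of the 31 members higher in dM 12 had a match (38.7%), of the 10 lower 2 (20%) and of the 15 not called 5 (33.3%). At least 2 matches were present in 16.1% of the tested members and in 5.92% of all genes. By call in dM this was 12.9% of the higher, 10% of the lower and 26.7% of the uncalled members. The windows of the following members are shown because they rose or fell in M and have matches. They end at the base before the gene start, the W boxes are in capitals, and the sequences are RefSeq TAIR10.1 on the strand of the gene.
WRKY75 (AT5G13080, chr5:4151202-4151451, reverse strand): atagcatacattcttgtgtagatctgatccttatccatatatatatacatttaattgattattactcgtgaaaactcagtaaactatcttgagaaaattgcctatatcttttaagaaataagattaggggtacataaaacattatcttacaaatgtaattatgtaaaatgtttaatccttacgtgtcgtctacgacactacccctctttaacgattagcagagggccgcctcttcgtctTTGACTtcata
WRKY15 (AT2G23320, chr2:9924636-9924885, forward strand): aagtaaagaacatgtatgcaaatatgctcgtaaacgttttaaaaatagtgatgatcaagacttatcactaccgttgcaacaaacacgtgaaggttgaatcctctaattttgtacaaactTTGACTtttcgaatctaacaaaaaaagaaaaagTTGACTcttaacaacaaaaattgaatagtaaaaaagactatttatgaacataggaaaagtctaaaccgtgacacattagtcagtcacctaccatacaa
WRKY30 (AT5G24110, chr5:8154711-8154960, reverse strand): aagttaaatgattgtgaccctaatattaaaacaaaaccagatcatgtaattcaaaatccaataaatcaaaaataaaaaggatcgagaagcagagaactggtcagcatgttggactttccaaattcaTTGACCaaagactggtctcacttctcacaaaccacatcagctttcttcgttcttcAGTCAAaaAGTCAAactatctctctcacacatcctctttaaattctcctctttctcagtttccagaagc
WRKY53 (AT4G23810, chr4:12393983-12394232, reverse strand): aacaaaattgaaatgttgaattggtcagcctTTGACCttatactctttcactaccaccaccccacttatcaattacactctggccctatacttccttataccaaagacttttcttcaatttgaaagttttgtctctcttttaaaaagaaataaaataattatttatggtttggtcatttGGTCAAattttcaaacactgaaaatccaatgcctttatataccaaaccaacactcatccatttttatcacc
WRKY75 has 1 match at 11 bases before the start, WRKY15 has 2 at 131 and 98 bases and WRKY53 has 2 at 219 and 71 bases, counted to the first base of the match. WRKY30 has 3, the highest number among the members. The windows of WRKY6, WRKY18, WRKY40, WRKY44, WRKY46, WRKY54, WRKY60 and WRKY70 have no match, which concerns only these letters in this window. Sequence matches were not tested for binding.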

How the data were processed

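RNA was extracted with Trizol, and libraries were made with the NEBNext Ultra RNA kit. The labels name CASAVA, HISAT2 and featureCounts with TAIR10 and give no versions, and whether counting used strand is not given in the sources used here. The authors deposited FPKM per gene, made from their read counts, gene lengths and library totals. The columns hold no fold changes, and every value column was matched to a sample by its label (0 columns left over). Whole reads were recovered from the FPKM values with a length fitted to each gene, which was chosen to give whole numbers. With these lengths 100.0% of nonzero values lay within 0.01 of a whole number, and with the listed lengths 55.8%. The higher share thus follows largely from the fit of the lengths. The gene length trend was removed by the listed lengths. Recovered depth was 17504383 to 27859805 reads per library. Limits set from this depth cover counting error only.

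Values were tested as log2(FPKM + 1), a scale that understates the change of low genes, in genes with a mean of at least 1 FPKM in at least 1 group. The fit used limma 3.58.1 in R 4.3.3 (trend, all 24 libraries, 1 mean per group) with 8 comparisons and Benjamini-Hochberg adjustment over 19575 genes. Descriptions used Python 3.11.15, numpy 2.4.6, pandas 2.3.3 and matplotlib 3.10.9. The fit was tested on simulated data. Differences are mutant minus Col-0 or the later minus the earlier group named, and folds are ratios of mean FPKM.

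The genes described were, per mutant comparison, the 4 largest rises and 2 largest falls among called members without overlap between groups, plus 12 listed WRKY genes (6, 18, 22, 33, 40, 45, 46, 53, 54, 60, 70 and 75). Others, such as WRKY28, WRKY71 and the NLR pair, were added after their values were seen. The members and lists were chosen with earlier results of these data known. Alternatives were a pseudocount of 0.1, no filter or a mean of at least 5 FPKM, median-of-ratios rescaling, removal of the gene length trend (loess, span 0.3), a replicate block, a fit to the compared groups only, limma-voom on the recovered reads, and the omission of each library. The labels give no batch or date. Replicate pairs all differed by more than sampling noise (smallest mean chi-square 2.46 over 24 pairs). Sequences came from RefSeq TAIR10.1.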

Additional observations from a re-analysis of the deposited data

Results flagged for a closer look

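Of the 23 genes described by rule, 19 had a mutant effect that differed between mature and young leaves (48.8% of all genes). This is the interaction term of limma, given here as the effect in M minus that in Y on the log2 scale. The rule took large rises and falls from these same values, which favoured such differences. The count is therefore no result about the family. The difference was positive in 9, namely WRKY45 (2.76), WRKY75 (2.24), WRKY61 (1.88), WRKY51 (1.81), WRKY6 (1.78), WRKY8 (1.69), WRKY44 (1.42), WRKY26 (1.15) and WRKY38 (0.71). It was negative in 10, namely WRKY40 (-3.73), WRKY46 (-2.54), WRKY18 (-1.56), WRKY49 (-1.46), WRKY33 (-1.21), WRKY53 (-0.89), WRKY22 (-0.79), WRKY54 (-0.73), WRKY70 (-0.70) and WRKY39 (-0.46). The difference in WRKY39 was not called once the gene length trend was removed. Where Col-0 levels were low, the value depended on the scale. WRKY26 had a difference of -0.28 with a pseudocount of 0.1 (adjusted p = 0.57) and -0.75 in limma-voom (adjusted p = 0.33), and its means differed 15.9-fold in Y and 8.49-fold in M. WRKY49 had -1.24 (adjusted p = 0.099) and -0.36 (adjusted p = 0.76), and WRKY75 had 0.99 (adjusted p = 0.033) and 0.49 (adjusted p = 0.51). The other 16 kept sign and call on both scales.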

How the results depend on the processing

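Of 236 alternative values for 16 counts of called WRKY genes, 224 lay within 1.5 times the count reported. With the gene length trend removed, 11 were lower in dP (4038 of all 19575 genes) and 6 higher in dR than in dM (6356). A minimum mean of 5 FPKM left fewer genes to test, 40 members and 15555 genes in all. Of the 40, 19 were higher in dM (5986 of all genes). Their median log2 fold change in M was 0.31 (0.07 for all genes), against 0.59 in the fit reported. At this minimum, 3 were lower in wM than in wY (3898 of all genes) and 14 had a positive difference between M and Y (3420). The fit to the compared groups gave 11 higher in dR than in the libraries labelled wR (4522 of all 19575 genes). A pseudocount of 0.1 and limma-voom each gave 15 positive and 14 negative differences between M and Y, against 22 and 15. For all 19575 genes these were 3616 and 5429 with the pseudocount and 3510 and 5631 in limma-voom. From dM to dR, median-of-ratios rescaling gave 4 higher (5707 of all 19575 genes) and limma-voom 1 (5285). The cause of these moves was not tested.

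Without 1 library at a time, the counts ranged from 4 (without wP replicate 3) to 7 for lower in dP and from 1 (without dM replicate 3, dR replicate 2 or dR replicate 3) to 3 for higher in dR than in dM. In M they were 30 to 32 higher and 9 to 10 lower, in Y 28 to 31 and 7 to 9, and in R 14 to 17 and 15 to 18. With the replicate block, 17 were higher and 7 lower in P, 32 and 9 in Y, 31 and 10 in M and 18 and 17 in R. Libraries with the same number did not deviate together (correlations -0.41 to 0.11), so the numbers were not read as pairs.

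For the named genes, 1229 of 1284 alternative values kept direction and call, 36 lost the call, 19 gained it and 0 reversed. Depth limits the low members most, since 3 reads on 1 kb correspond to 0.108 to 0.171 FPKM.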
